A study of Homo sapiens with 6 samples.

Results

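The genes described here regulate the sterol regulatory element binding proteins (SREBPs) and the uptake and traffic of cholesterol: SREBF1, SREBF2, SCAP, INSIG1, INSIG2, MYLIP, STARD4, NR1H2 and NR1H3. They were chosen by name, with earlier results of these data known. They are 9 of the 24960 genes in the count table, and all 9 were among the 15095 genes that passed the filter on low counts. RNA was sequenced in bulk from K562 cells, a human line established from a patient with chronic myeloid leukemia in blast crisis and labelled by the submitters with bone as its source, which were kept in serum-containing medium. The control group (3 libraries of the same line, with no agent named) was compared with the hyperoside group (3 libraries of K562 cells given hyperoside at 2 mM, the flavonol glycoside quercetin 3-galactoside), and the time between treatment and RNA extraction is not given in the sources used here. All 6 libraries come from this 1 line, with no genetic change named, and nothing in the labels says that replicates came from separate cultures, so p-values measure only the spread between these libraries, which may be technical.

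SREBP-1 and SREBP-2, encoded by SREBF1 and SREBF2, are made as membrane proteins of the endoplasmic reticulum bound to the escort protein SCAP. When sterols are plentiful, INSIG proteins hold SCAP in the endoplasmic reticulum, and when sterols fall, SCAP carries the SREBPs to the Golgi, where they are cleaved and released to switch on genes of sterol and fatty acid synthesis, and also INSIG1 and STARD4. The liver X receptors (LXRs), encoded by NR1H2 (LXRβ) and NR1H3 (LXRα), are nuclear receptors for oxysterols that act in the opposite state, when sterols are abundant, and MYLIP, an LXR target, encodes a ubiquitin ligase that marks lipoprotein receptors for breakdown and so limits the uptake of low-density lipoprotein (LDL).

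Promoter sequences were taken from RefSeq (GRCh38.p14), as 300 bases running from 250 before to 50 after the annotated transcription start, and all 9 genes had at least 1 such window. The windows of the 4 genes with the largest called differences in transcript level are printed 5′ to 3′ on the gene's own strand, because these genes moved in both directions; capitals mark matches to the motifs searched. The SREBF2 window lies at chr22:41832855-41833154 (plus strand), the INSIG1 window at chr7:155297628-155297927 (plus strand), the MYLIP window at chr6:16128836-16129135 (plus strand) and the STARD4 window at chr5:111512486-111512785 (minus strand).
SREBF2: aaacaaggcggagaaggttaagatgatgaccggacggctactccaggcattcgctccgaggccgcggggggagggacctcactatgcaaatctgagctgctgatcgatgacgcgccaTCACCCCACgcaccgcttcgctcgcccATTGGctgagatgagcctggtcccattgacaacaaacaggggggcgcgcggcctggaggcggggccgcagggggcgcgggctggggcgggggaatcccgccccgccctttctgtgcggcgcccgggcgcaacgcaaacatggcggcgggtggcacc
INSIG1: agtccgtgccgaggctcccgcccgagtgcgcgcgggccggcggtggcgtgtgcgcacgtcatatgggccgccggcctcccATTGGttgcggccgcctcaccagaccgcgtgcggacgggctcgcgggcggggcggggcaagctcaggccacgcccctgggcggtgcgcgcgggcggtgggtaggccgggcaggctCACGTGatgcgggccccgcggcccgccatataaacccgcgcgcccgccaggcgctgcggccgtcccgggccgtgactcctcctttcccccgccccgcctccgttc
MYLIP: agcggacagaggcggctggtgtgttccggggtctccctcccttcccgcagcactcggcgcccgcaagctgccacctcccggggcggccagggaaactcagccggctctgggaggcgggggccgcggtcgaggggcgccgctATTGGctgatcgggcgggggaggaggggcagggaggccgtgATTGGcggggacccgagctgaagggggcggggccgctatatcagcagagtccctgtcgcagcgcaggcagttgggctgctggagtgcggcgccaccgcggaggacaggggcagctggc
STARD4: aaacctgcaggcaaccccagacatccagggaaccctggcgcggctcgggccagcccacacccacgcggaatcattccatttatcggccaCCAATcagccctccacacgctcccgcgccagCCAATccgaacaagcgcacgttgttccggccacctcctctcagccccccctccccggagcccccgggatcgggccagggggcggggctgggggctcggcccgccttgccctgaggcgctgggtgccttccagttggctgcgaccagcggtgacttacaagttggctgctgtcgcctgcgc

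The motifs were searched on both strands, and no match overlapped another. The SREBP element core, TCACNCCAC, was found in the SREBF2 window only among the 9 genes, from 133 to 125 bases before the start, and 1.13% of 35116 RefSeq promoter windows hold it. The E-box CACGTG was found in the INSIG1 and SCAP windows and in 7.26% of all windows. The NF-Y box CCAAT, printed as its reverse complement where it lies on the other strand, was found once in SREBF2 and INSIG1, at 2 places each in MYLIP and STARD4, and in 1 of the 4 NR1H3 windows, so that 5 of the 13 windows of the 9 genes (38.5%) held it, near the 34.6% of all windows. The cyclic AMP response element TGACGTCA and the LXR direct repeat (AGGTCA repeated after 4 bases) had no match in the windows of the 9 genes and were in 1.85% and 0.0199% of all windows. Exact letters were required and only these windows were searched, so a miss cannot show that a gene lacks such an element. NF-Y boxes were thus present in genes that were lower (SREBF2, INSIG1, STARD4) and in genes that were higher (MYLIP, NR1H3) in the hyperoside group; a match is a description of letters and not a measured binding site.

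**Figure D1:**
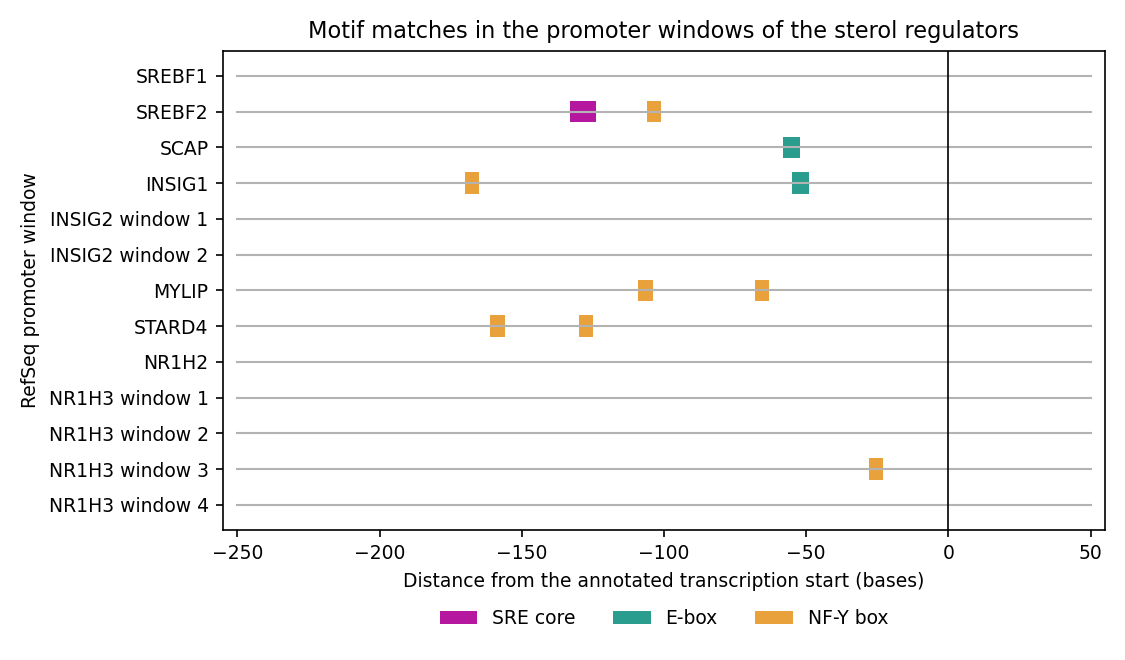
Matches to the motifs in the RefSeq promoter windows of the 9 genes, with the distance from the annotated transcription start in bases on the x axis and one line for each window (INSIG2 has 2 and NR1H3 has 4). The SREBP element core appears in SREBF2 alone, E-boxes in SCAP and INSIG1, and NF-Y boxes in SREBF2, INSIG1, MYLIP, STARD4 and the third NR1H3 window.

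The SREBP genes also carry microRNAs within their introns, which the libraries did not measure and which RefSeq places in SREBF2 at chr22:41900949-41900969 (plus strand) and in SREBF1 at chr17:17813897-17813916 (minus strand). They are shown because both hosts are members and the mature forms share 1 seed (bases 2 to 8, in capitals).
hsa-miR-33a-5p: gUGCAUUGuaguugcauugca
hsa-miR-33b-5p: gUGCAUUGcuguugcauugc

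Each library held between 35613283 and 36754725 counts assigned to genes, so that 1 count equalled 0.0272 to 0.0284 CPM (counts scaled to the same library total). Control replicate 1 stood farthest from its group. In a comparison of counts between replicates, chi-square divided by its degrees of freedom was 20.3 and 23.1 for the pairs with this library and 6.34 to 13.1 for the other pairs of replicates. All 8 erythroid and K562 marker genes (KLF1, ALAS2, HBZ, GFI1B, EPOR, TAL1 and GATA1 among them) were tested. By the rule for a call given below, 4 were higher and 1 lower, where 22.1% and 23.2% of all genes tested were called in these directions. Their summed level ran from 881 to 1068 CPM in the control group and from 1001 to 1193 CPM in the hyperoside group. GATA1, which encodes the master factor of the erythroid lineage, stood at 141 ± 18.3 CPM (SD, n = 3) in the control group and 135 ± 7.01 CPM in the hyperoside group.

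A gene was called when its adjusted p (edgeR quasi-likelihood test, Benjamini-Hochberg over all genes tested) was under 0.05. By this rule 6841 of 15095 genes, or 45.3%, were called, and 6 of the 9 sterol regulators were called, 3 lower (SREBF2, INSIG1, STARD4) and 3 higher (MYLIP, NR1H2, NR1H3) in the hyperoside group. Of all genes tested, 22.1% were called higher and 23.2% lower. Calls with a fold change above 2 covered 10.2% of all genes and 2 of the 9, INSIG1 and STARD4. The CPM ranges of the groups did not overlap for the same 6 genes and for 54.4% of all genes tested. The median log2 fold change of the 9 was -0.046, against 0.0032 over all genes tested, and the median size of the change was 0.61 against 0.33. Because the 9 were chosen with earlier results of these data known, these shares and medians are descriptions. Libraries from bulk culture were compared, so fewer cells of a type and less RNA per cell cannot be told apart.

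**Figure D2:**
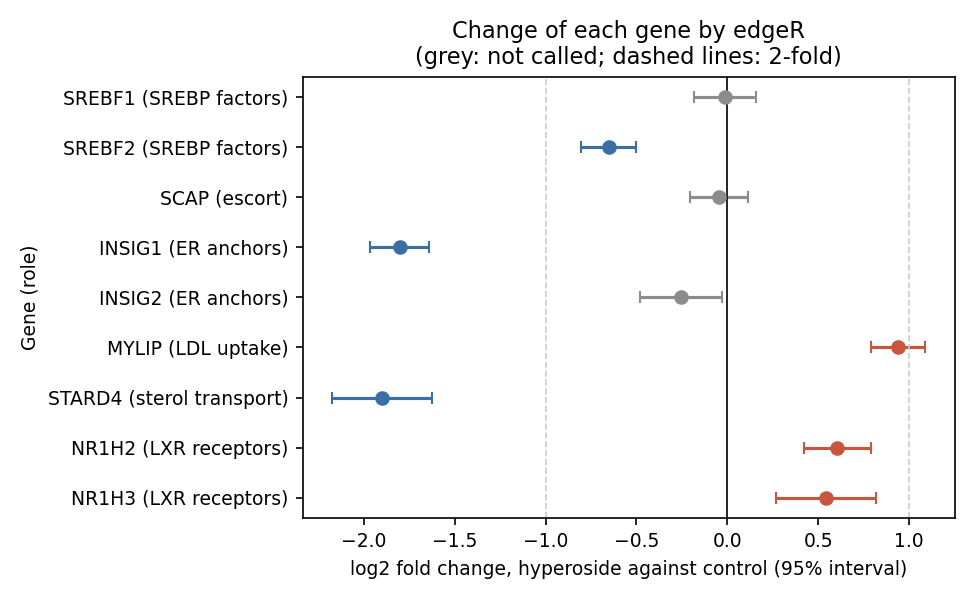
Log2 fold change of each gene, hyperoside against control (x axis), with its 95% interval from the edgeR fit over 6 libraries; the role of each gene is given beside its name on the y axis. INSIG1 (-1.80) and STARD4 (-1.90) lie beyond a 2-fold decrease, MYLIP (0.94) lies just inside a 2-fold increase, and the intervals of SREBF1 and SCAP include 0.

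SREBF2, the gene of the SREBP that mainly drives sterol synthesis, was lower with hyperoside while SREBF1, whose product mainly drives fatty acid synthesis, showed no difference that could be called. SREBF2 (chr 22, 41833079 to 41907308, plus strand; GRCh38, GENCODE 29) had 27.9, 27.0 and 25.8 FPKM (the deposited level, which is scaled to gene length and to library depth) in the control libraries and 18.2, 17.0 and 17.9 FPKM in the hyperoside libraries. Every hyperoside library lay below every control library. The log2 fold change was -0.65 (SE 0.073, 95% interval -0.81 to -0.50, adjusted p = 1.29e-06, edgeR), which left the mean CPM at 63.6% of the control mean.

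SREBF1 (chr 17, 17810399 to 17837002, minus strand) had 11.5, 10.6 and 10.7 FPKM in the control libraries and 10.9, 11.5 and 11.2 FPKM in the hyperoside libraries. The ranges of the groups overlapped. Its log2 fold change was -0.013 (SE 0.082, adjusted p = 0.913, edgeR), and the 95% interval of -0.19 to 0.16 excludes a decrease of the size fitted for SREBF2. The sign was not stable across processing alternatives. Within each library the ratio of SREBF1 to SREBF2 FPKM was 0.411, 0.392 and 0.416 in the control group and 0.599, 0.681 and 0.624 in the hyperoside group. The mean log2 ratio was -1.30 ± 0.045 in the control and -0.66 ± 0.094 in the hyperoside group (SD, n = 3), a separation with no overlap for which the 2-sided exact permutation test gave p = 0.1, the smallest p that 3 against 3 libraries allow (adjusted over 4 ratios, 0.133).

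Exons of SREBF1 and SREBF2 overlap genes on the opposite strand by 556 bases (RAI1) and 280 bases (SREBF2-AS1), and whether the counting used strand is not given in the sources used here, so reads in the shared bases cannot be told apart. RAI1, a chromatin-associated factor, was higher in the hyperoside group (log2 fold change 0.63, adjusted p = 9.41e-05, edgeR), and its part in the SREBF1 value was not tested. SREBF2-AS1 had 1 to 11 counts in a library, against 4472 to 7488 for SREBF2. RAI1, SREBF2-AS1 and the other neighbouring genes given with the members were chosen after values were seen.

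SCAP, the escort of both SREBPs, had control levels that overlapped those of SREBF2 and did not pass the test. SCAP (chr 3, 47413694 to 47477126, minus strand) had 26.5, 24.6 and 24.4 FPKM in the control libraries and 24.8, 24.9 and 25.9 FPKM in the hyperoside libraries. The values of the groups interleaved, and the log2 fold change was -0.046 (SE 0.075, 95% interval -0.20 to 0.11, adjusted p = 0.644, edgeR).

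INSIG1, which encodes the sterol-regulated retention protein of SCAP and is itself an SREBP target, was 3.49-fold lower in the hyperoside group. INSIG1 (chr 7, 155297776 to 155310235, plus strand) had 51.7, 51.0 and 48.9 FPKM in the control libraries and 15.4, 14.4 and 15.2 FPKM in the hyperoside libraries. Every hyperoside library lay far below every control library. The log2 fold change was -1.80 (SE 0.077, 95% interval -1.96 to -1.64, adjusted p = 1.03e-11, edgeR), which ranked 11 by p among all genes tested and 4 among the genes called lower. The transcript whose symbol marks it as divergent from INSIG1, INSIG1-DT, had 253, 287 and 235 counts in the control libraries and 93, 128 and 106 in the hyperoside libraries, a log2 fold change of -1.29 (SE 0.19, adjusted p = 2.77e-05, edgeR).

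INSIG2, the family member that does not depend on SREBP for its expression, had a smaller fold change that missed the threshold. INSIG2 (chr 2, 118088452 to 118110997, plus strand) had 5.36, 6.47 and 6.43 FPKM in the control libraries and 5.80, 5.02 and 5.002 FPKM in the hyperoside libraries. Control replicate 1 was the lowest of its group and hyperoside replicate 1 the highest of its group, and they crossed. The log2 fold change was -0.25 (SE 0.11, 95% interval -0.48 to -0.030, unadjusted p = 0.0288, adjusted p = 0.0610, edgeR). Without control replicate 1 the fold change was -0.32 with an adjusted p of 0.0140 (edgeR), so that whether INSIG2 was called depended on this library.

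Ratios among the anchors and their partner were then taken within each library. The ratio of INSIG1 to INSIG2 was 9.64, 7.88 and 7.59 in the control libraries and 2.66, 2.87 and 3.03 in the hyperoside libraries, a difference of -1.55 in mean log2 ratio. The ratio of summed INSIG1 and INSIG2 FPKM to SCAP FPKM was 2.15, 2.34 and 2.27 in the control libraries and 0.856, 0.779 and 0.777 in the hyperoside libraries, a difference of -1.49. INSIG transcripts thus outnumbered SCAP transcripts in all control libraries and were fewer than SCAP transcripts in all hyperoside libraries, on the scale of FPKM. Both ratios had an exact permutation p = 0.1 (2-sided; adjusted 0.133), and transcript ratios say nothing of protein amounts.

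**Figure D3:**
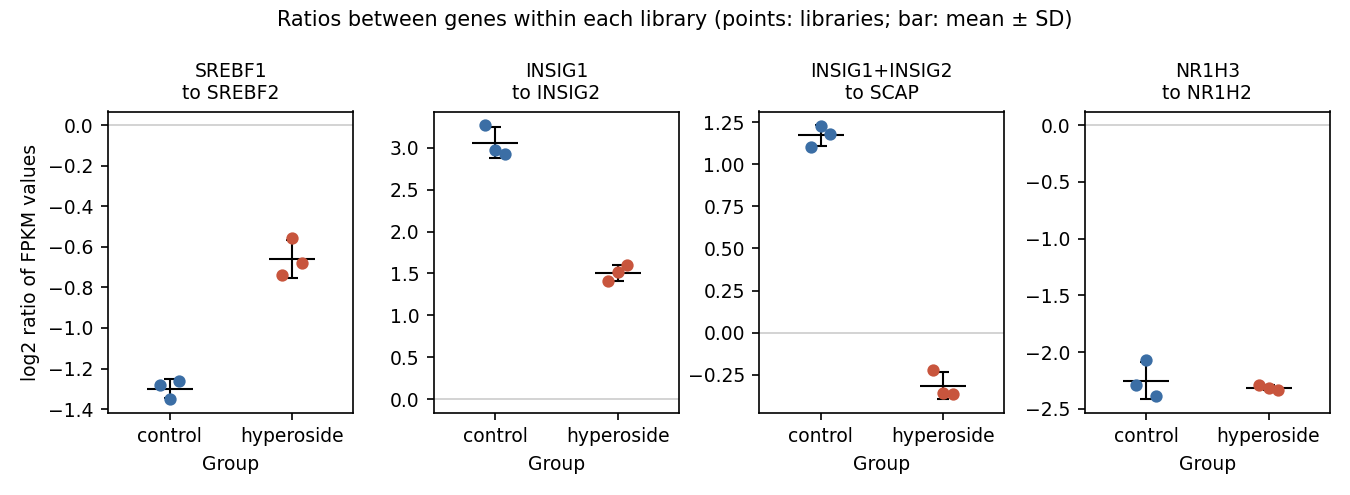
Log2 ratio of FPKM values between genes within each library (y axis) for the control and hyperoside groups (x axis), with points for libraries and bars for mean ± SD (n = 3). The groups do not overlap for SREBF1 to SREBF2, INSIG1 to INSIG2 and summed INSIG to SCAP, and they overlap for NR1H3 to NR1H2.

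MYLIP, the ubiquitin ligase that limits LDL uptake, was higher in the hyperoside group. MYLIP (chr 6, 16129125 to 16148248, plus strand) had 31.5, 33.5 and 31.6 FPKM in the control libraries and 64.6, 61.7 and 65.5 FPKM in the hyperoside libraries. Every hyperoside library lay above every control library. The fold change was 1.92 (log2 0.94, SE 0.071, 95% interval 0.79 to 1.09, adjusted p = 1.24e-08, edgeR), which ranked 74 among the genes called higher.

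STARD4, a soluble carrier that moves cholesterol between membranes, was lower in the hyperoside group. STARD4 (chr 5, 111496033 to 111512590, minus strand) had 6.78, 10.9 and 10.2 FPKM in the control libraries and 2.82, 2.29 and 2.61 FPKM in the hyperoside libraries. All hyperoside libraries were lower, and control replicate 1 was the lowest of its group. The log2 fold change was -1.90 (SE 0.13, 95% interval -2.17 to -1.62, adjusted p = 4.70e-09, edgeR), a 3.73-fold decrease; the log2 fold change was -2.06 without control replicate 1 and -1.77 without control replicate 2. Its interval overlapped that of INSIG1, and which of the pair had the larger fold change differed between alternatives. The control group spread was wider than for the other members, with a highest-to-lowest CPM ratio of 1.56 against 1.08 to 1.17. STARD4 exons share 124 bases with the opposite-strand STARD4-AS1, which had 0 to 5 counts in a library.

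The LXR genes were both higher with hyperoside. NR1H2, the broadly expressed LXRβ gene (chr 19, 50329653 to 50382982, plus strand), had 13.9, 12.6 and 13.7 FPKM in the control libraries and 20.6, 21.2 and 21.4 FPKM in the hyperoside libraries. The groups did not overlap. The log2 fold change was 0.61 (SE 0.087, 95% interval 0.42 to 0.79, adjusted p = 2.22e-05, edgeR).

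NR1H3, the LXRα gene (chr 11, 47248300 to 47269032, plus strand), was the least abundant member in the control group, with 2.84, 2.99 and 2.61 FPKM there and 4.21, 4.26 and 4.25 FPKM in the hyperoside libraries. The groups did not overlap. The log2 fold change was 0.54 (SE 0.13, 95% interval 0.27 to 0.82, adjusted p = 0.00269, edgeR). NR1H3 exons share 189 bases with the opposite-strand gene ACP2, a lysosomal acid phosphatase that was also higher (log2 fold change 0.62, adjusted p = 0.000491, edgeR), and its part in the NR1H3 value was not tested. The NR1H3 to NR1H2 ratio was 0.204, 0.238 and 0.191 in the control libraries and 0.204, 0.201 and 0.199 in the hyperoside libraries, and these overlapped (difference in mean log2 ratio -0.062, exact permutation p = 0.8, 2-sided; adjusted 0.8).

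LXRα is abundant in macrophages, and monocytic markers were counted beside it. Of 10 monocytic and macrophage markers, 5 were tested and 4 were called higher, where 22.1% of all genes tested were called higher. Their summed level was 209 to 217 CPM in the control libraries and 270 to 306 CPM in the hyperoside libraries. LYZ (lysozyme) went from 52.8 to 76.3 CPM, ITGAM (an integrin of myeloid cells) from 13.99 to 24.8, CD68 (a lysosomal glycoprotein) from 145 to 184 and FCGR1A from 1.11 to 1.04 CPM. CSF1R was also called higher, at low counts (16, 5 and 6 in the control and 35, 30 and 34 in the hyperoside libraries). Its log2 fold change was 1.81 (adjusted p = 0.0123, edgeR), and it was named after its values were seen. The markers that were not tested were near 0, with MARCO at 0 counts in every library and CD14, CD163, MRC1 and MPEG1 at 7 counts or fewer in each. Of 8 markers of other cell types, 6 were tested, 1 was called higher (PECAM1, 9.74 to 28.0 CPM) and 1 lower (COL1A1, 2.77 to 1.40 CPM), while EPCAM stood at 78.4 and 77.1 CPM. Their summed level was 92.9 to 97.6 CPM in the control and 106 to 115 CPM in the hyperoside libraries, and the part of these markers in the member values was not tested.

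**Figure D4:**
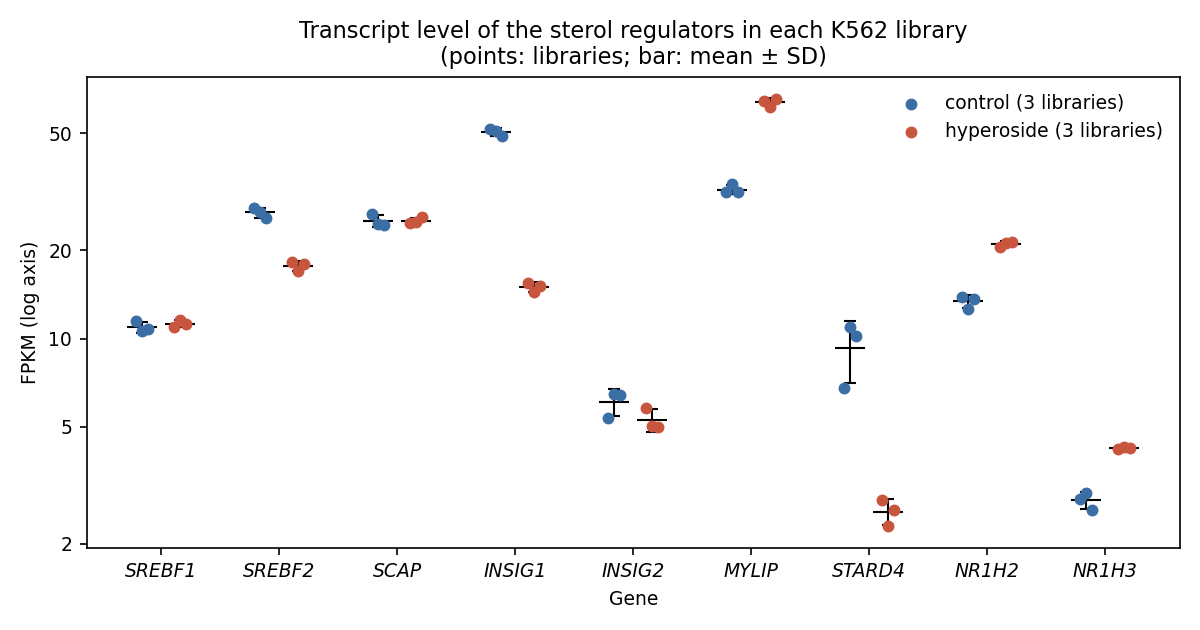
FPKM of each member in each K562 library (y axis, log scale), with points for libraries and bars for mean ± SD (n = 3 in each group). INSIG1, SREBF2 and STARD4 are lower and MYLIP, NR1H2 and NR1H3 higher in all hyperoside libraries, while SREBF1, SCAP and INSIG2 overlap.

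Levels per length placed the members in a different order in each group. In the control group mean FPKM fell from INSIG1 (50.5 ± 1.48, SD, n = 3) through MYLIP (32.2 ± 1.16), SREBF2 (26.9 ± 1.06), SCAP (25.1 ± 1.19), NR1H2 (13.4 ± 0.711), SREBF1 (10.9 ± 0.471), STARD4 (9.29 ± 2.21) and INSIG2 (6.09 ± 0.630) to NR1H3 (2.81 ± 0.192). The ranges of SREBF2 and SCAP overlapped, as did those of SREBF1 and STARD4, and the other neighbours in the order did not. In the hyperoside group the order ran from MYLIP (63.9 ± 1.999) through SCAP (25.2 ± 0.613), NR1H2 (21.1 ± 0.430), SREBF2 (17.7 ± 0.667), INSIG1 (14.99 ± 0.547), SREBF1 (11.2 ± 0.311), INSIG2 (5.28 ± 0.458) and NR1H3 (4.24 ± 0.028) to STARD4 (2.57 ± 0.266), and no neighbours overlapped. INSIG1, highest in the control group, stood below MYLIP, SCAP, NR1H2 and SREBF2 in the hyperoside group, and STARD4 was lowest there.

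The other genes of the SREBP and LXR pathways were taken from lists written with earlier results of these data known, and their counts are descriptions. Over 94 tested genes of 108 listed, 16 were called higher, 49 lower and 29 were not called (69.1% called, against 45.3% of all genes), with a median log2 fold change of -0.27. Of 21 genes of the SREBP processing machinery, 4 were higher, 11 lower and 6 not called (71.4% called, median -0.20). SPRING1, which helps SREBP cleavage by maturing the site-1 protease, went from 32.5 ± 2.72 to 51.1 ± 2.42 CPM (SD, n = 3; log2 fold change 0.65, adjusted p = 1.50e-05, edgeR). RNF139, a ubiquitin ligase of the endoplasmic reticulum, and ERLIN2, a membrane scaffold protein of the same compartment, were also higher (0.55 and 0.48). The genes lower included HSPA5, the main chaperone of the endoplasmic reticulum (-2.42, adjusted p = 1.98e-12, edgeR), SEC24D, a coat protein of vesicles that leave it (137 to 68.3 CPM), and HSP90AA1, a cytosolic chaperone (-0.69). MBTPS1, the site-1 protease gene, was not called (0.16, adjusted p = 0.0874, edgeR), and MBTPS2, the site-2 protease gene, was called higher (0.35, adjusted p = 0.00571, edgeR); both were named after their values were seen.

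Of 21 sterol synthesis enzymes, 1 was higher, 19 lower and 1 not called (median -0.71). Calls thus covered 95.2% of this list, against 45.3% of all genes tested. MSMO1, a sterol demethylase of the later pathway, went from 67.9 ± 7.26 to 16.8 ± 2.34 CPM (log2 fold change -2.02), FDFT1, squalene synthase, from 391 ± 36.8 to 137 ± 5.27 CPM (-1.52), and MVD, mevalonate decarboxylase, from 96.5 ± 11.6 to 36.1 ± 1.62 CPM (-1.42). PMVK, phosphomevalonate kinase, was the gene that was higher (9.44 to 14.7 CPM, 0.64, adjusted p = 0.00235, edgeR), and TM7SF2, a sterol reductase, was not called (0.32, adjusted p = 0.113, edgeR; chosen after its value was seen). Of 14 fatty acid synthesis genes, 1 was higher, 9 lower and 4 not called (median -0.47), so that 71.4% were called. Those lower included SCD, stearoyl-CoA desaturase (645 to 319 CPM, -1.01), FASN, fatty acid synthase (448 to 211 CPM, -1.08), and ACACA, acetyl-CoA carboxylase (153 to 88.4 CPM, -0.79). ACACB, the mitochondrial isoform of that carboxylase, was higher (0.66, adjusted p = 0.00418, edgeR).

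Of 15 LXR target genes listed, 11 were tested, 3 were higher, 2 lower and 6 not called (median 0.18). The share called was 45.5%, near the 45.3% of all genes tested. ABCA1 was not called (0.96, adjusted p = 0.0754, edgeR), and ABCG1, with 0 or 1 count in each library, was not tested. Both were named after their values were seen. PLTP, the phospholipid transfer protein, went from 36.0 to 49.0 CPM (0.44). APOC1, an apolipoprotein, went from 106 to 125 CPM (0.23, adjusted p = 0.0343, edgeR), and that call did not hold without control replicate 2, control replicate 3, hyperoside replicate 1 or hyperoside replicate 3 (edgeR adjusted p 0.0873 to 0.173). MLXIPL, a carbohydrate-responsive factor, was lower (7.09 to 3.55 CPM, -0.997). Of 14 listed LXR partners, cofactors and ligand enzymes, 9 were tested, 4 were higher, 1 lower and 4 not called (median 0.26). Of the 9 tested, 55.6% were called, not far above the 45.3% of all genes tested. The coactivator genes split, with NCOA6 (35.7 to 58.1 CPM, 0.70) and NCOA1 (54.9 to 71.3 CPM, 0.38) higher and NCOA3 lower (90.6 to 61.9 CPM, -0.55).

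Of 23 sterol transfer and storage genes listed, 18 were tested, 3 were higher, 7 lower and 8 not called (median -0.066). Calls covered 55.6% of the 18 tested, not far above the 45.3% of all genes tested. STARD5, a relative of STARD4 that also binds sterols, was lower, from 8.69 ± 1.15 to 2.48 ± 0.589 CPM (SD, n = 3; log2 fold change -1.81, adjusted p = 1.16e-06, edgeR). OSBPL5, a lipid carrier at membrane contacts, was higher (7.06 to 10.5 CPM, 0.58). NPC2, the soluble cholesterol carrier of the lysosome, was higher by 0.30 (adjusted p = 0.0269, edgeR), and that call did not hold without control replicate 2, control replicate 3, hyperoside replicate 1 or hyperoside replicate 3 (edgeR adjusted p 0.0564 to 0.148).

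**Figure D5:**
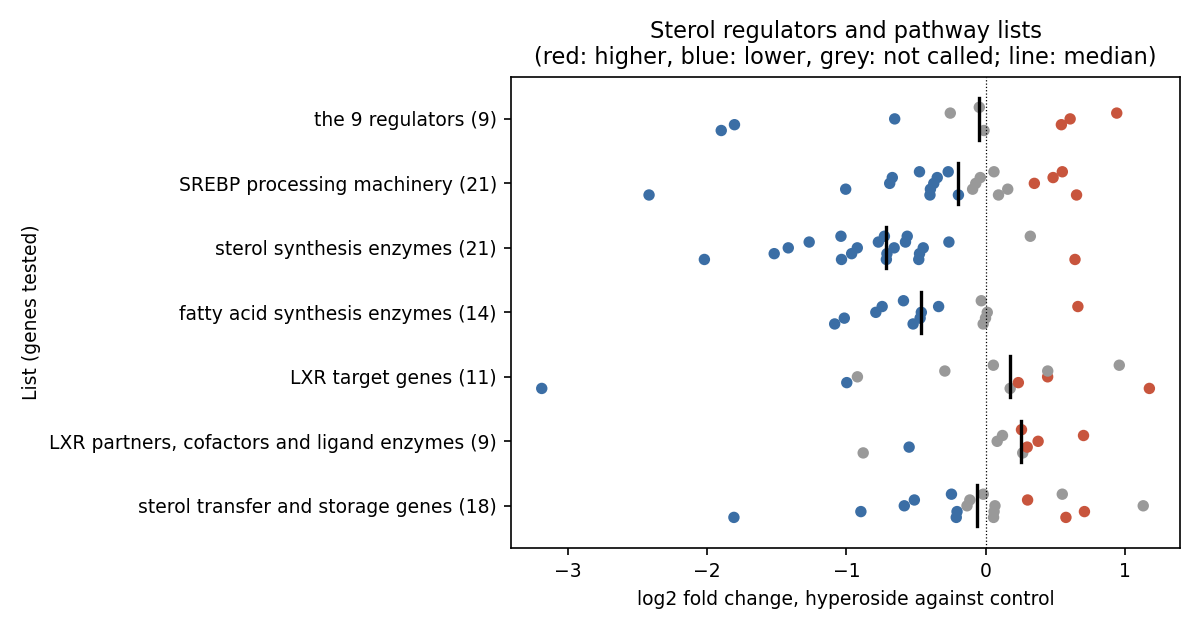
Log2 fold change, hyperoside against control (x axis), of the 9 regulators and of each pathway list (y axis, with the number of genes tested); points are genes, coloured by call, and vertical lines are medians. The sterol synthesis enzymes have 19 of 21 genes called lower (23.2% of all genes tested were), whereas the LXR target genes fall on both sides of 0.

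The transcripts whose levels followed INSIG1 and MYLIP most closely over the 6 libraries were sought among 11334 tested genes with a mean of at least 100 counts, by Pearson correlation of log2 CPM. For INSIG1 these were MORF4L2 (r = 0.9998, log2 fold change -0.73), a chromatin-associated protein gene, DNAJB11 (r = 0.9997, -1.02), a co-chaperone gene of the endoplasmic reticulum, and INTS8 (r = 0.9994, -0.51), an Integrator subunit gene. For MYLIP these were SLC27A2 (r = 0.9995, 1.18), a fatty acid transporter gene, GNPDA1 (r = 0.9993, 1.11), an amino sugar deaminase gene, and CHST3 (r = 0.9989, 3.47), a sulfotransferase gene. Above r = 0.95 were 1267 genes for INSIG1 and 1047 for MYLIP. The 6 points behind each correlation fall into groups of 3 libraries that differ in level, and they share their libraries and depth, so the values describe these libraries only.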

How the data were processed

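RNA was extracted from K562 cells of the control and hyperoside groups (3 libraries each) and sequenced. The submitters' processing notes name fastp, HISAT2, HTSeq and the build hg38; versions, annotation and strand setting are not given in the sources used here. The authors deposited raw counts per gene and FPKM values per library, and every column matched a sample (0 columns of other samples). Counts were tested with edgeR 4.0.16 in R 4.3.3 (glmQLFit and glmQLFTest; filterByExpr with a minimum count of 10 and total of 15; TMM scaling; group as the only term), with Benjamini-Hochberg adjustment over 15095 genes and calls at 0.05. SE is the size of the log2 fold change divided by the square root of F. CPM used TMM library sizes. Levels between genes are FPKM, and ratios were tested by exact permutation over 20 regroupings. The code was tested on simulated data. Of 98 genes with a simulated log2 change of 1, 79.6% were called in the right direction, and of 97 genes with a change of 0.5, 48.5% were. In the same simulation 10 unchanged genes were called. Only these 98 and 97 genes of 14836 tested were changed in the simulation, whereas 45.3% of genes were called in the data. The adjustment was thus stricter there, and the recovery cannot be carried over to the data. A gene that was not called may still differ. limma 3.58.1, DESeq2 1.42.0, other scalings, filters and pseudocounts (1 and 0.1 FPKM), the replicate block and each library left out were the alternatives. The authors' FPKM lengths were used as deposited.

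The members and lists were chosen with earlier results of these data known. The text names every member; for each pathway list, the called genes of lowest adjusted p, up to 3 higher and 3 lower; the 3 genes whose pattern is most like that of INSIG1 and of MYLIP, which had the lowest adjusted p among the members called lower and higher, respectively; and marker genes with a mean of at least 1 CPM in either group; some of these genes are not reported here. Gene positions are from GENCODE 29.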

Additional observations from a re-analysis of the deposited data

How the results depend on the processing

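Across 15 alternatives other than the fold threshold (scalings, DESeq2, limma on CPM or FPKM, filters, the replicate block and each library left out), 6 of the 9 members and 27 of 29 named list genes kept direction and call; the exceptions were SREBF1, SCAP and INSIG2 among members and APOC1 and NPC2 among list genes. SREBF1 (main log2 fold change -0.013) was reversed with upper-quartile scaling (0.028), a mean of at least 50 counts (0.0038) and log2 FPKM with pseudocounts of 1 (0.035) and 0.1 (0.038), and ran from -0.043 to 0.046 with single libraries left out. SCAP (-0.046) was reversed on log2 FPKM with pseudocounts of 1 (0.0049) and 0.1 (0.0051) and ran from -0.086 to 0.017 with single libraries left out. Neither was called in any setting. INSIG2 ran from -0.32 to -0.17 over all alternatives (adjusted p 0.0140 to 0.202; edgeR, DESeq2 or limma). The NR1H3 to NR1H2 ratio ran from -0.13 to 0.028 with single libraries left out, reversed without control replicate 2.

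Requiring a fold change above 2 left 0 members higher in place of 3, 1 pathway list gene higher in place of 16, and 12 lower in place of 49. Replicate numbers are shared between groups, but same-numbered libraries did not deviate together (correlations -0.081 to -0.0327, and 0 of 6 libraries correlated best with their own number). With the replicate number as a block, 3 members were higher and 3 lower, 15 list genes were higher and 46 lower, and 3026 of all genes were higher and 3103 lower, in place of 3333 and 3508; APOC1 was no longer called (0.23, adjusted p = 0.0570, edgeR). Upper-quartile scaling shifted the median of all genes by 0.0405. STARD4 ran from -2.06 to -1.51 over all alternatives. Depth limited the low-count genes, and 3 libraries a group limited the ratio tests, which cannot reach a p under 0.1. The cause of these differences was not tested.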

Other observations

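Genes of lipoprotein receptors moved in both directions. LRP1, a large endocytic receptor, had 15.5, 24.3 and 27.5 CPM in the control libraries and 37.8, 32.3 and 39.9 CPM in the hyperoside libraries, with no overlap (log2 fold change 0.71, SE 0.15, adjusted p = 0.000946, edgeR). LRP8, an apolipoprotein E receptor and a known target of the MYLIP ligase at the protein level, had 46.3, 44.2 and 39.1 CPM in the control libraries and 20.6, 29.1 and 19.9 CPM in the hyperoside libraries (-0.90, SE 0.13, adjusted p = 1.61e-05, edgeR). SCARB1, the receptor for high-density lipoprotein, had 89.4, 81.2 and 75.5 CPM in the control libraries and 51.4, 54.5 and 58.3 CPM in the hyperoside libraries (-0.58, SE 0.086, adjusted p = 2.69e-05, edgeR). VLDLR, the receptor for very-low-density lipoprotein and another MYLIP target, was named after its values were seen and did not pass the filter on low counts, with 9, 13 and 14 counts in the control libraries and 0, 0 and 3 in the hyperoside libraries.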
